A study of Mus musculus with 6 samples.

Results

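The Cited genes encode a small family of transcriptional coregulators, represented here by 3 of the 18193 genes with a single-symbol probe set and by 5 of 45037 probe sets that were not controls. Cited1 had 1 probe set, Cited2 had 2 and Cited4 had 2. The members were taken by symbol, and Cited1 was chosen by its measured signal, which was seen to be lower than control in both macroH2A shRNA lines on these arrays. Its values against the control line are therefore given as a description, without a test, and they support nothing further. Its paralogs Cited2 and Cited4 were included for their relation to it. The mouse B16-F1 melanoma line, of C57BL/6J origin, was the source of all RNA. A stable lentiviral hairpin against GFP (control shRNA), mH2A1 (macroH2A1 shRNA) or mH2A2 (macroH2A2 shRNA) defined each line, so the control cells carried a hairpin too. Each of the 3 lines had 2 arrays, described by the submitters as independent biological replicates. The number of hairpins per target, and whether a line was a clone or a pool, are not given in the sources used here. Each SE below reflects the spread between arrays of the same line, pooled over the 3 lines. The limma fit also draws it toward the spread of other probe sets of similar signal. Differences that come from how a line was made may lie outside the SE.

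CITED proteins do not bind DNA themselves. Through an acidic carboxy-terminal domain they hold the histone acetyltransferases CBP and p300, and through other parts they contact DNA-binding factors such as TFAP2, SMAD and nuclear receptor proteins. Cited1 was first described as Msg1, a melanocyte-specific gene, and its product coactivates SMAD4 and the estrogen receptor. Cited2 is induced by hypoxia and limits the hypoxia-inducible factor HIF by competing with it for CBP and p300, while Cited4 coactivates TFAP2. MacroH2A1 and macroH2A2 are histone H2A variants with a large macro domain, best known for their enrichment on the inactive X chromosome.

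The family members lie on different chromosomes, Cited1 on the X chromosome (GRCm38.p6 chrX:102247378-102252181), Cited2 on chromosome 10 (chr10:17723228-17725674) and Cited4 on chromosome 4 (chr4:120666563-120667820). The RefSeq promoter table (GRCm38.p6) lists 3 transcription starts for Cited1 and 1 each for Cited2 and Cited4. The 250 bases before the outermost start of each gene are shown because Cited1 and Cited2 had unlike differences from control. Those of Cited4 are included although its signals were too dim to compare. They are written 5′ to 3′ on the strand of the gene, and capitals mark matches to the motif TATAAA, to the motif CCAAT or to the motif ACGTG, searched on both strands.
Cited1 (chrX:102252182-102252431, minus strand): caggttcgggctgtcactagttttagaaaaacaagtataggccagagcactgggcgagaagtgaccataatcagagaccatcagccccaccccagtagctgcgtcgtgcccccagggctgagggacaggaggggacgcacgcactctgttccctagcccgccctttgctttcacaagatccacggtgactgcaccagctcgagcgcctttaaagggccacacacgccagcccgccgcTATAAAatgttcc
Cited2 (chr10:17722978-17723227, plus strand): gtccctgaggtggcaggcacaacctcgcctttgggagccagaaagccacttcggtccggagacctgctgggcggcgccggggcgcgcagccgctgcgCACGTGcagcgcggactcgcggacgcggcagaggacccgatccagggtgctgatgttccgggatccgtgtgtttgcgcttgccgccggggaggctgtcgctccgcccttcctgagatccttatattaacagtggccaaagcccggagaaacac
Cited4 (chr4:120666313-120666562, plus strand): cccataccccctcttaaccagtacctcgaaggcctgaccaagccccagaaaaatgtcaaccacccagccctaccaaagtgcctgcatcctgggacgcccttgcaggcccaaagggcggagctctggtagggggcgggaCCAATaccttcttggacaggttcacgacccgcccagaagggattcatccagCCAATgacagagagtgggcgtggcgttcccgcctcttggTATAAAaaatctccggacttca

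In the Cited1 stretch TATAAA began 13 bases before the annotated start, and in the Cited4 stretch it began 22 bases before it. Of 32851 promoter windows of this length, 12.4% hold TATAAA. Cited4 also had 2 copies of CCAAT, which 33.8% of windows hold. Cited2 had ACGTG, the core of the element that HIF recognises, on each strand of a single CACGTG, and 16.6% of windows hold ACGTG. The motif CATGTG, held by 12.3% of windows, and the AP-2 motif GCCNNNGGC, held by 13.7%, had 0 matches in these 3 stretches. The GC content was 58.0% for Cited1, 66.8% for Cited2 and 58.0% for Cited4, beside a median of 52.4% over all windows. The 250 bases before the middle of the Cited1 starts held 4 of the 5 motifs once each, and those before the innermost start held the AP-2 motif once. These matches describe letters and no binding was measured.

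Values are signals on a linear scale, 1 per probe set, and differences are on the log2(signal + 16) scale, which understates changes of dim probe sets. Probe sets with a mean signal of at least 10.4 over the 6 arrays were tested, 27025 in all, and a call required a two-sided limma adjusted p under 0.05. Replicate 1 and replicate 2 differed in a way partly shared between lines, so differences are also given within replicate sets 1 and 2. Macroh2a1 checked its label, with 1213 and 1262 in the control arrays, 444.2 and 319.1 in the macroH2A1 shRNA arrays and 1271 and 1170 in the macroH2A2 shRNA arrays. Its difference from control in the macroH2A1 shRNA line was -1.67 (SE 0.17), and its limma adjusted p of 0.123 did not pass. In each of the 3 comparisons 0 (0%) of all tested probe sets passed. A count of 0 passes therefore does not set a gene or list apart. Macroh2a2 read 6.1 and 7.5 in the control arrays, 3.5 and 2.0 in the macroH2A1 shRNA arrays and 11.9 and 8.3 in the macroH2A2 shRNA arrays. Its average was below the filter, so it was not tested, and these low signals were highest in the line labelled as its knockdown, against the direction of the label. The macroH2A2 shRNA line is therefore named by its label alone, also wherever a difference is given for it. Melanocyte genes summed to between 52505 and 64168 over 19 genes on each array. By array, 6 leukocyte, 7 fibroblast, 7 keratinocyte and 6 endothelial markers summed to at most 86.5, 185, 98.0 and 45.8, and 2, 2, 3 and 1 of them passed the filter.

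Cited1 was lower in both macroH2A shRNA lines. Its probe set, 1449031_at, read 1322 and 968.5 in the control arrays, 281.6 and 297.2 in the macroH2A1 shRNA arrays and 440.2 and 367.1 in the macroH2A2 shRNA arrays. The 2 control arrays were the highest, the 2 macroH2A1 shRNA arrays the lowest, and the 3 groups did not overlap. As mean ± SD over n = 2 arrays, the signal was 1145 ± 250 with control shRNA, 289.4 ± 11.0 with macroH2A1 shRNA and 403.6 ± 51.7 with macroH2A2 shRNA. The control line had the widest spread of the 3, and its lower array still stood above every other array.

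**Figure D1:**
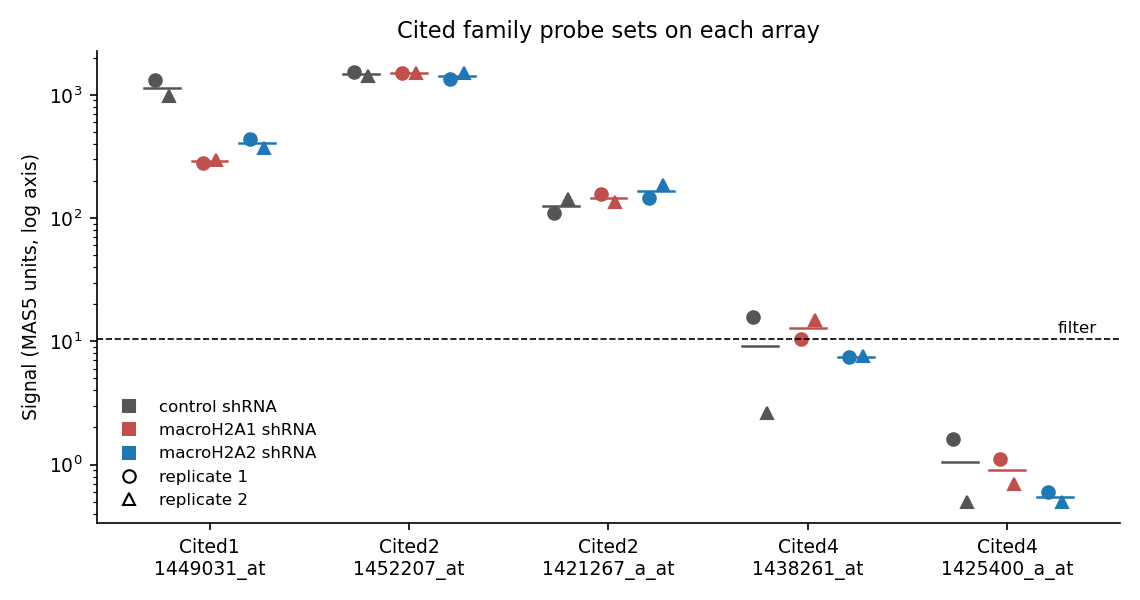
Signal (MAS5 units, logarithmic axis) of the 5 Cited family probe sets on each of the 6 arrays, with circles for replicate 1, triangles for replicate 2 and a bar at the mean of each line. The dashed line is the filter at 10.4; Cited1 separates the 3 lines, the Cited2 probe sets stay within 1348 to 1524 and 110.0 to 185.5, and the Cited4 probe sets average below the filter.

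The difference of Cited1 from control was -1.91 on the log2 scale (SE 0.18) in the macroH2A1 shRNA line, a 3.76-fold lower level, with -2.17 in set 1 and -1.65 in set 2. In the macroH2A2 shRNA line it was -1.46 (SE 0.18), a 2.75-fold lower level, with -1.55 and -1.36 in the sets. Both comparisons use the same 2 control arrays. Of the 27025 tested probe sets, 14.9% had both macroH2A1 shRNA arrays below both control arrays, and 16.2% had both macroH2A2 shRNA arrays below them. Cited1 ranked 5th from the lowest difference in the macroH2A1 shRNA line and 8th in the macroH2A2 shRNA line, where the median over all tested probe sets was -0.03 in each. These ranks describe the choice of the gene and are not evidence about it. In bulk RNA, fewer cells that express Cited1 and less Cited1 RNA per cell cannot be told apart.

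One of the fibroblast markers had its highest signals on the control arrays, as Cited1 did. Pdgfra, a growth factor receptor gene, read 82.9 and 52.4 in the control arrays, 32.5 and 24.4 in the macroH2A1 shRNA arrays and 25.6 and 25.2 in the macroH2A2 shRNA arrays. At this probe set, its brightest, the differences were -0.89 (SE 0.25) and -0.99 (SE 0.25), with limma adjusted p of 0.880 and 0.929. Its other tested probe set, with a mean signal of 18.3, had -0.03 and -0.08 (SE 0.32 for each, from the fit without a filter). Another Pdgfra probe set, below the filter, had -0.31 and -0.30. Col1a2, a fibrillar collagen gene, had estimates in the other direction, 0.46 (SE 0.20) and 0.27 (SE 0.20), and the other 5 fibroblast markers were below the filter. The summed fibroblast markers were 120.4 to 185 in the control arrays, 111.9 to 145.7 in the macroH2A1 shRNA arrays and 108.7 to 119.3 in the macroH2A2 shRNA arrays. The summed leukocyte markers were 75.9 to 86.5, 71.6 to 82.1 and 56.2 to 60.8 in the same order. None of the tested markers of the 4 cell types passed in either line, as over all tested probe sets. Their part in the Cited1 difference was not tested.

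The order of the Cited1 levels was control, then macroH2A2 shRNA, then macroH2A1 shRNA. The step between the macroH2A shRNA lines did not choose the gene, although the arrays are the same. Cited1 was 0.45 higher on the log2 scale in the macroH2A2 than in the macroH2A1 shRNA line (SE 0.18, 95% interval 0.03 to 0.88), with 0.62 in set 1 and 0.29 in set 2. The limma adjusted p was 1 (0.0396 unadjusted), so this step did not pass, and of all tested probe sets 0 (0%) passed in that comparison. Both macroH2A2 shRNA arrays stood above both macroH2A1 shRNA arrays, as for 13.3% of tested probe sets.

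Cited2 showed no difference that passed the test. The brighter probe set, 1452207_at, read 1524 and 1413 in the control arrays, 1509 and 1504 in the macroH2A1 shRNA arrays and 1348 and 1498 in the macroH2A2 shRNA arrays. The control arrays overlapped each macroH2A shRNA line. The difference from control was 0.04 (SE 0.12, 95% interval -0.24 to 0.31) in the macroH2A1 shRNA line and -0.05 (SE 0.12, -0.32 to 0.23) in the macroH2A2 shRNA line. The limma adjusted p was 0.9999 and 1, and between the macroH2A shRNA lines the difference was -0.08 (SE 0.12, limma adjusted p = 1). Both macroH2A2 shRNA arrays lay below both macroH2A1 shRNA arrays, as for 14.6% of tested probe sets. At this probe set the intervals leave out a change of the size seen for Cited1 in either line.

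The dimmer Cited2 probe set, 1421267_a_at, read 110.0 and 141.6 in the control arrays, 155.3 and 135.3 in the macroH2A1 shRNA arrays and 144.6 and 185.5 in the macroH2A2 shRNA arrays. Both macroH2A2 shRNA arrays lay above both control arrays, as for 13.0% of tested probe sets, while the macroH2A1 shRNA arrays overlapped the control. The difference was 0.19 (SE 0.21, 95% interval -0.28 to 0.67) in the macroH2A1 shRNA line and 0.35 (SE 0.21, -0.12 to 0.83) in the macroH2A2 shRNA line. The limma adjusted p was 0.9999 and 1, and the difference between the macroH2A shRNA lines was 0.16 (SE 0.21, limma adjusted p = 1). The Cited2 probe sets thus had estimates of opposite sign in the macroH2A2 shRNA line, with intervals that overlap. Among all 27025 tested probe sets 0 (0%) passed in each comparison with control. With the replicate number as a block, 0.192% passed for macroH2A1 shRNA, 0.144% for macroH2A2 shRNA and 0.0037% between these lines, and neither Cited2 probe set did.

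Cited4 was dim on every array. Probe set 1438261_at read 15.7 and 2.6 in the control arrays, 10.5 and 15 in the macroH2A1 shRNA arrays and 7.4 and 7.6 in the macroH2A2 shRNA arrays, an average of 9.8. Its control arrays enclosed all other arrays. Probe set 1425400_a_at read between 0.5 and 1.6 on all 6 arrays. Neither reached the filter, so neither was tested, and a change of Cited4 was not detectable at these signals. Of the 5 family probe sets 3 were tested, which are those of Cited1 and Cited2.

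**Figure D2:**
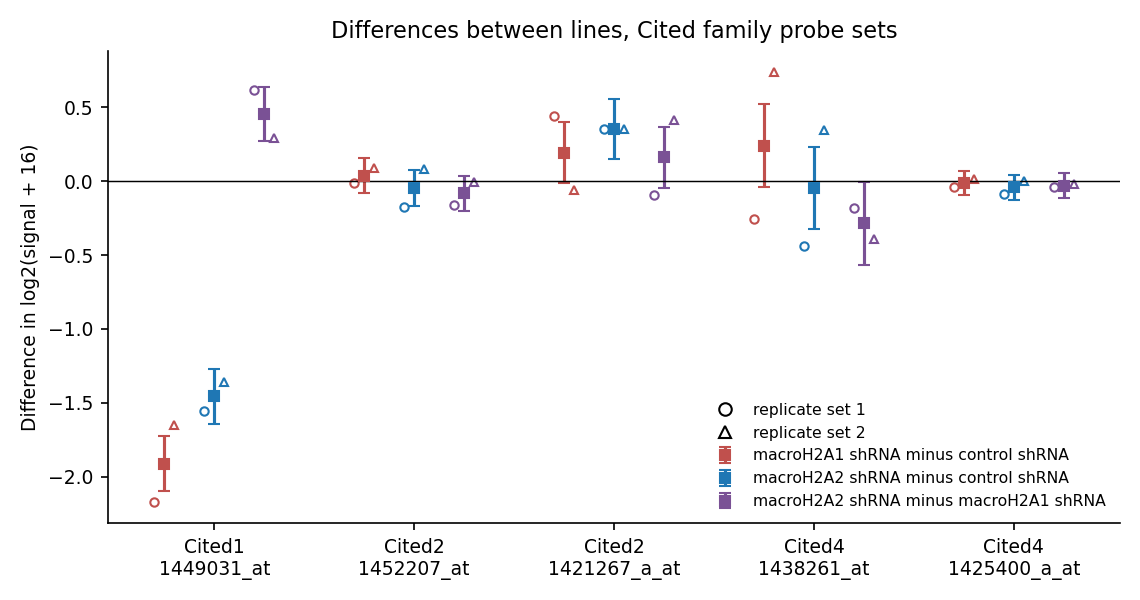
Difference in log2(signal + 16) between lines for each Cited family probe set, as squares with their SE from the limma fit, with open circles for replicate set 1 and open triangles for set 2. For the Cited4 probe sets, below the filter, the SE came from the fit without a filter. Cited1 lies between -2.17 and -1.36 in both sets and both comparisons with control, while the brighter Cited2 probe set lies between -0.17 and 0.09.

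The difference of Cited1 from control was also set against that of Cited2 within each replicate set. Relative to the brighter Cited2 probe set, Cited1 was lower by a log2 difference of -2.15 in set 1 and -1.74 in set 2 in the macroH2A1 shRNA line. In the macroH2A2 shRNA line the same quantity was -1.38 and -1.45. Relative to the dimmer Cited2 probe set it was -2.61 and -1.59, and -1.90 and -1.72, in the 2 lines. These values carry no test, because the Cited1 part of each was the reason for choosing the gene. Between the 2 control arrays Cited1 differed by 0.44 on the log2 scale, replicate 1 being the higher, and the brighter Cited2 probe set by 0.11.

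CITED proteins act through CBP and p300, and neither coactivator gene passed the test, as no tested probe set did. Ep300, which encodes p300, read 410.7 and 387.6 in the control arrays, 446.3 and 354.8 in the macroH2A1 shRNA arrays and 396.1 and 359.9 in the macroH2A2 shRNA arrays. Its differences were -0.0033 (SE 0.16) and -0.08 (SE 0.16). Crebbp, which encodes CBP, had 0.12 (SE 0.21) and 0.15 (SE 0.21) at the brightest of its 4 probe sets, and the others had estimates of both signs. The groups of arrays overlapped for both genes in both lines.

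Of 13 genes for DNA-binding factors and beta-catenin that CITED proteins are known to bind, 8 passed the signal filter. As over all tested probe sets, 0 of these passed the limma threshold in either line. The median difference of the 8 was 0.10 with macroH2A1 shRNA and -0.01 with macroH2A2 shRNA, beside -0.03 over all tested probe sets in each. Tfap2a, an AP-2 factor of the neural crest and melanocyte lineage, read 548.8 and 501.2 in the control arrays, 644.1 and 732.3 in the macroH2A1 shRNA arrays and 662.3 and 707.2 in the macroH2A2 shRNA arrays. All 4 macroH2A shRNA arrays were above both control arrays. With each line taken alone, 13% of all tested probe sets lay above control without overlap. The differences were 0.38 (SE 0.14) and 0.37 (SE 0.14), and its other 2 probe sets also had positive estimates in both lines. The unadjusted limma p was 0.0272 and 0.0287, and the adjusted p did not pass.

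Esr1, the estrogen receptor alpha gene, was close to the filter. It read 31.9 and 36.4 in the control arrays, 7.5 and 16.0 in the macroH2A1 shRNA arrays and 11.5 and 31.9 in the macroH2A2 shRNA arrays, with differences of -0.87 (SE 0.32) and -0.47 (SE 0.32). The macroH2A1 shRNA arrays lay below the control arrays, as for 14.9% of tested probe sets, and the macroH2A2 shRNA arrays reached them. The SMAD genes had small estimates, Smad2 with 0.06 (SE 0.18) and 0.29 (SE 0.18), Smad3 with 0.05 (SE 0.15) and -0.14 (SE 0.15), and Smad4, the shared partner of the pathway SMADs, with 0.16 (SE 0.13) and 0.11 (SE 0.13). Ctnnb1, which encodes beta-catenin, had 0.15 (SE 0.10) and 0.02 (SE 0.10). Dimmer probe sets of these 4 genes had estimates of the opposite sign in at least 1 line. Hnf4a and Tfap2c averaged 11.1 and 11.2 in signal, just above the filter, and Tfap2b, Egr2, Lhx2, Ppara and Pparg averaged below it.

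Cited2 is both a target and a limiter of HIF, so genes of the HIF pathway were counted beside it. Of 9 genes for HIF subunits, their hydroxylases and Vhl, which marks HIF for degradation, 0 passed in either line, as over all tested probe sets. Hif1a had -0.06 (SE 0.11) and 0.07 (SE 0.11). Egln3, a prolyl hydroxylase that HIF induces, read 120.8 and 79.1 in the control arrays against 52.3 and 48.9 with macroH2A1 shRNA and 30.1 and 55.5 with macroH2A2 shRNA. Its differences were -0.78 (SE 0.28) and -0.99 (SE 0.28), with no overlap with control in either line. Of all tested probe sets, 14.9% with macroH2A1 shRNA and 16.2% with macroH2A2 shRNA lay below control without overlap. Vhl had -0.09 (SE 0.19) and -0.27 (SE 0.19). Egln2, another prolyl hydroxylase, had 0.21 (SE 0.19) and 0.26 (SE 0.19), and Hif1an, the asparaginyl hydroxylase, 0.25 (SE 0.18) and 0.12 (SE 0.18).

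Among 19 tested HIF target genes 0 passed in either line, as over all tested probe sets. Estimates were below 0 for 15 genes in the macroH2A1 and 18 in the macroH2A2 shRNA line. Of all tested probe sets, 55.6% and 55.7% were below 0. Their median difference was -0.39 in the macroH2A1 and -0.63 in the macroH2A2 shRNA line. Slc2a1, a glucose transporter, had -0.50 (SE 0.18) and -0.80 (SE 0.18), and Bhlhe40, a transcriptional repressor, -0.46 (SE 0.22) and -0.81 (SE 0.22). Pfkfb3, a glycolytic regulator, had -0.67 (SE 0.20) and -0.45 (SE 0.20), and Car9, a carbonic anhydrase, -0.16 (SE 0.22) and -0.66 (SE 0.22). All 19 genes were higher on control replicate 1 than on control replicate 2, with a median difference of 0.53. Replicate 1 was the higher for 12 genes in the macroH2A1 shRNA line (median 0.09) and for 5 in the macroH2A2 shRNA line (median -0.26). Within set 2 the list medians were -0.05 and -0.02, against -0.76 and -1.13 in set 1. Without control shRNA replicate 1 the medians were -0.0018 and -0.21, and without control shRNA replicate 2 they were -0.79 and -1.01. Cited1 itself also read higher on control replicate 1, and its difference without that array was -1.69 in the macroH2A1 and -1.24 in the macroH2A2 shRNA line.

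Of 15 tested TGF-beta and SMAD target or receptor genes, 0 passed in either line, as over all tested probe sets. The medians were 0.01 and 0.04. Tgfbr2, a TGF-beta receptor, had 0.53 (SE 0.17) and 0.34 (SE 0.17) at its brightest probe set, and Ski, a SMAD corepressor, 0.44 (SE 0.15) and 0.12 (SE 0.15). Pmepa1, a feedback inhibitor of the pathway, had -0.96 (SE 0.35) and -0.54 (SE 0.35), and the ligand gene Tgfb1 had -0.51 (SE 0.21) and -0.57 (SE 0.21). These 4 genes are the examples with the smallest p, and their arrays did not overlap control in either line. Over the 15 genes, 2 lay above control without overlap and 6 below it with macroH2A1 shRNA, and 3 above and 3 below with macroH2A2 shRNA, where 13% of all tested probe sets lay above control in each line and 14.9% and 16.2% below it.

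The earlier name of Cited1, Msg1, refers to melanocytes. Of 19 tested melanocyte genes 0 passed in either line, as over all tested probe sets. Their median was 0.17 in the macroH2A1 and 0.06 in the macroH2A2 shRNA line, with estimates above 0 for 14 and 13 of the 19. In the macroH2A1 shRNA line 9 of the 19 lay above control without overlap and 3 below it, and in the macroH2A2 shRNA line 4 and 3 did. Over all tested probe sets, 13% lay above control without overlap in each line, and 14.9% and 16.2% lay below it. Of the 4 genes with the smallest p, which are described first, 3 had estimates below 0, unlike most of the list. Tyr, which encodes tyrosinase, read 1917 and 2032 in the control arrays, 1450 and 1443 in the macroH2A1 shRNA arrays and 1515 and 1851 in the macroH2A2 shRNA arrays. Its differences were -0.44 (SE 0.13) and -0.23 (SE 0.13), and its other 2 probe sets were also below 0. Met, the receptor of hepatocyte growth factor, had -0.34 (SE 0.11) and -0.17 (SE 0.11), and Trpm1, a melanocyte cation channel, -0.69 (SE 0.22) and -0.09 (SE 0.22). Of the 4 Trpm1 probe sets, 1 had an estimate above 0 in the macroH2A1 shRNA line. Oca2, a melanosomal transporter, had 0.54 (SE 0.17) and 0.06 (SE 0.17). Mitf, the master regulator of the lineage, had 0.27 (SE 0.14) and 0.02 (SE 0.14) at its brightest probe set. Its other probe set had 0.10 and -0.34.

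**Figure D3:**
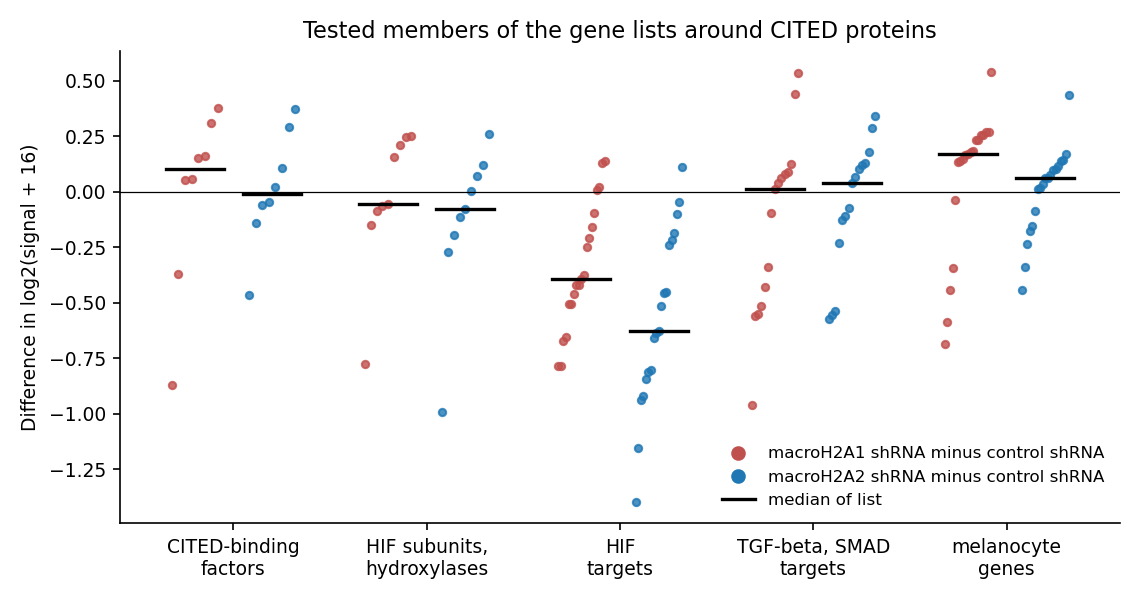
Difference from control in log2(signal + 16) for the tested members of 5 gene lists, 1 point per gene at its brightest probe set, with a black bar at the list median. HIF targets have medians of -0.39 and -0.63, which were -0.05 and -0.02 within replicate set 2. As over all tested probe sets, 0 members of any list shown passed the limma threshold.

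The pattern of Cited1 over the 6 arrays was set beside those of 2022 other genes, each at its brightest tested probe set, with an SD of at least 0.3 in log2(signal + 16). The highest Pearson correlations were 0.994 for Ptgfrn, a tetraspanin-associated membrane protein, 0.991 for Kalrn, 0.989 for Pfkfb3, 0.982 for Nlgn2, a postsynaptic adhesion protein, and 0.981 for Card10, a scaffold of NF-kB signalling. In total 17 genes exceeded 0.95, and the 6 points share 3 group means, so such values are a description only. Ptgfrn read 96.9 and 67.0 in the control arrays, 24.2 and 23.8 in the macroH2A1 shRNA arrays and 32.3 and 29.3 in the macroH2A2 shRNA arrays. It shared the order of the lines with Cited1, and its replicate 1 control array was likewise the higher. The differences of Kalrn from control were -1.06 and -0.87, those of Nlgn2 -0.77 and -0.46 and those of Card10 -0.91 and -0.81. Kalrn was dim, with 35.8 and 24.2 in the control arrays. Its macroH2A shRNA arrays read 4.9 to 10.6, close to or below the filter signal.

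**Figure D4:**
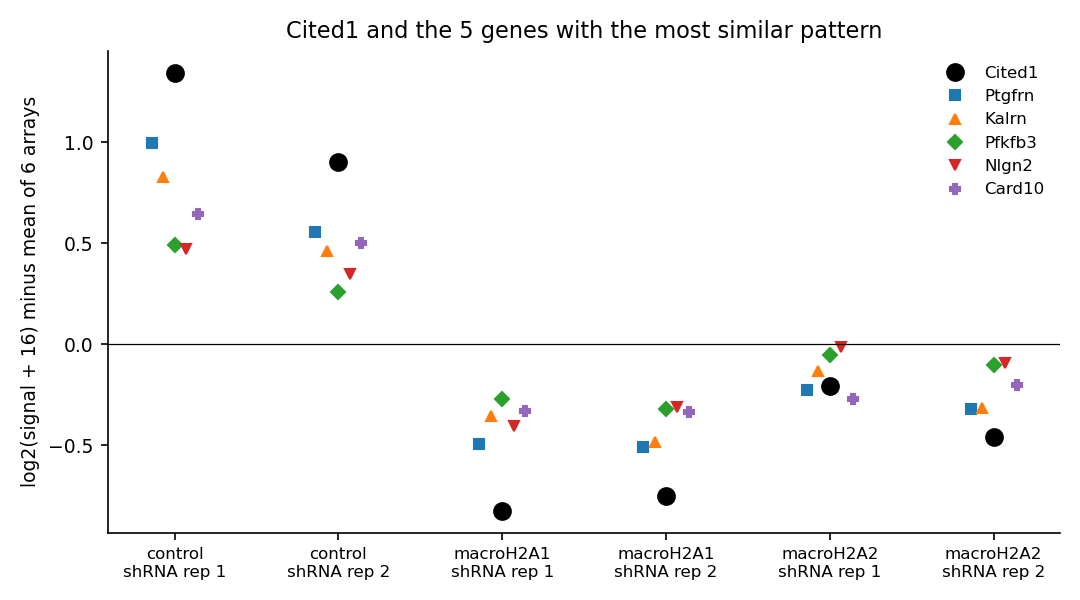
Log2(signal + 16) minus its mean over the 6 arrays, for Cited1 (black) and the 5 genes with the highest correlation to it, by array. All 6 genes are above 0 in both control arrays and below 0 in the 4 macroH2A shRNA arrays.

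The same ranking for the brighter Cited2 probe set gave Zcchc24 at 0.994, Nr4a3, an orphan nuclear receptor, at 0.990 and Olfr1508 at 0.987. Nr4a3 read 570.7 and 303.0 in the control arrays, 533.5 and 573.3 in the macroH2A1 shRNA arrays and 147.5 and 509.5 in the macroH2A2 shRNA arrays. Its lowest arrays, macroH2A2 shRNA replicate 1 and control replicate 2, were also the lowest for Cited2, whose range was far narrower. For Cited4 at 1438261_at, below the filter, the highest values were 0.962 for Spdya, 0.944 for Sec24b and 0.941 for A930007A09Rik. In Cited4 and these 3 genes control replicate 1 stood above control replicate 2.

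The position of Cited1 on the X chromosome was compared with its neighbours. Of the 5 nearest genes on each side with a single-symbol probe set, 7 were tested. As over all tested probe sets, 0 of the 7 passed in either line. Their differences ran from -0.27 to 0.18 in the macroH2A1 shRNA line and from -0.17 to 0.11 in the macroH2A2 shRNA line. Hdac8, a histone deacetylase gene 32.5 kb away, read 66.4 and 57.1 in the control arrays, 74.3 and 46.4 in the macroH2A1 shRNA arrays and 57.1 and 80.1 in the macroH2A2 shRNA arrays. Its groups overlapped, with differences of -0.05 (SE 0.26) and 0.11 (SE 0.26). On the other side Rps4x, a ribosomal protein gene 58.0 kb away, had 0.18 (SE 0.12) and -0.02 (SE 0.12), and Ercc6l, a mitotic helicase, -0.06 (SE 0.32) and 0.0062 (SE 0.32). Phka1, a phosphorylase kinase subunit, had -0.12 (SE 0.19) and 0.02 (SE 0.19).

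**Figure D5:**
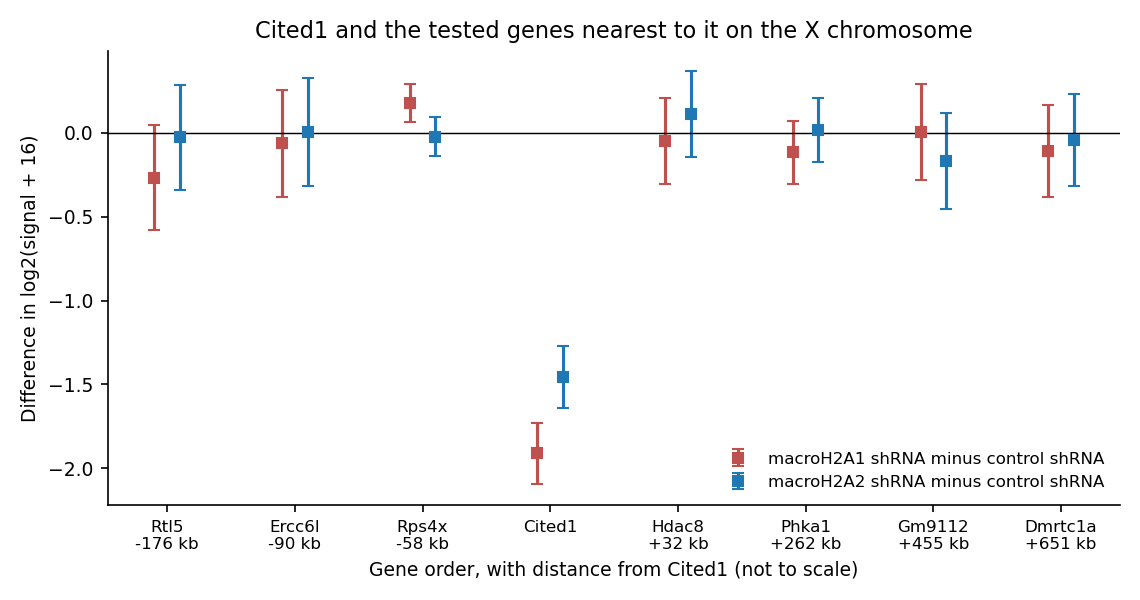
Difference from control in log2(signal + 16), with SE, for Cited1 and the 7 tested genes among its 10 nearest, in gene order with the distance in kb under each name. The neighbours lie between -0.27 and 0.18, and Cited1 lies at -1.91 and -1.46.

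Over 695 tested X-linked probe sets the median difference was -0.04 in the macroH2A1 and -0.03 in the macroH2A2 shRNA line, and over 21944 on other chromosomes it was -0.02 in each. As over all tested probe sets, 0 of the tested neighbours of Cited2 and Cited4 passed in either line. For Cited2 they were 4 genes, the farthest 3018 kb away. Their differences ran from -0.19 to 0.32 in the macroH2A1 and from -0.38 to 0.15 in the macroH2A2 shRNA line. The tested neighbours of Cited4 were 5 genes between -0.10 and 0.10 and between -0.09 and 0.06.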

How the data were processed

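Each of the 6 arrays carried 45101 probe sets, of which 64 controls were left out. The deposited intensities are linear signals from MAS5 according to the submitters' processing notes, with its version not given in the sources used here. Their 2% trimmed mean was 150.0 on all 6 arrays, so a change in total RNA is not visible, and their medians lay between 15.1 and 24.6. Symbols came from the platform annotation (34945 probe sets with 1 symbol, 932 with several, 9160 with none), and genome positions from RefSeq on GRCm38.p6. Probe sets at or above the 40th percentile of mean signal were tested with limma 3.58.1, run under R 4.3.3 (eBayes with trend after lmFit, 3 group means, Benjamini-Hochberg adjustment over all 27025). The number of arrays limits the precision, with 3 residual and 4.90 prior degrees of freedom. The fit was tested on simulated data.

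Same-numbered arrays deviated together (correlations of replicate 1 minus replicate 2 differences 0.576, 0.372 and 0.415 over the 3 pairs of lines), and so the numbers were taken as pairs, from the data and not from the labels. A fit with the replicate block and the alternatives named in the closing section were also run. Genes were named by rule. All probe sets of the family were named, with up to 4 members per list by smallest p in either line, all tested binding factors and both coactivators, the most similar genes, and neighbours. In lists the brightest probe set stood for a gene. The choice of Mitf, Hif1a and some neighbours as examples was made after their values were seen. The members and lists were chosen with earlier results of these data known.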

Additional observations from a re-analysis of the deposited data

How the results depend on the processing

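The difference of Cited1 from control, which chose the gene, was -2.13 to -1.69 in the macroH2A1 and -1.68 to -1.24 in the macroH2A2 shRNA line with single arrays left out, and the ends came from leaving out a control array. The block, the filters and the variance trend cannot move this estimate. Between the macroH2A shRNA lines Cited1 ranged from 0.33 to 0.58, with a lowest limma adjusted p of 0.613, from the replicate block. The block gave no call to Cited2 (lowest limma adjusted p 0.618), and called 52 probe sets (0.192%) in the macroH2A1 and 39 (0.144%) in the macroH2A2 shRNA line against control, and 1 between these lines, where 0 passed without it. It also called Macroh2a1 (limma adjusted p 0.00120), and 0 other members of the gene lists outside the Cited family. Whether the block called Cited1 against control is not given, because that difference chose the gene. Centring arrays on their median called 3 in the macroH2A1 shRNA line. Without the block, 1189, 1075 and 739 probe sets had an unadjusted limma p under 0.05 in these 3 comparisons.

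The estimates of Cited2, which did not pass under any alternative, changed sign where they were close to 0. The brighter probe set gave -0.0057 in the macroH2A1 shRNA line after quantile normalization and -0.016 to 0.091 with single arrays left out. In the macroH2A2 shRNA line it gave 0.029 after median centring and -0.12 to 0.030 with single arrays left out. The dimmer probe set gave -0.0035 to 0.32 between the macroH2A shRNA lines with single arrays left out. The cause was not tested. Where a line kept 1 array, it was assumed to vary like the others. The 60th percentile filter, the absence of a filter, a pseudocount of 1 and a fit without the variance trend moved none of the tested family values across the threshold.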
